A study of Rattus norvegicus with 42 samples.

Results

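The 53 genes described here belong to the Wnt signalling pathway, without covering all of its genes on the array. They are ligands, ligand processing factors, receptors, R-spondin genes, antagonists, cytoplasmic transducers and TCF transcription factors. They were taken from 14218 genes with a probe set of their own by gene symbol alone (the Wnt, Fzd, Sfrp, Dkk, Lgr, Rspo, Dvl, Nkd, Axin and Tcf7 families with Frzb, Lrp5, Lrp6, Ryk, Apcdd1, Wif1, Kremen1, Ctnnb1, Apc, Gsk3b, Porcn, Wls and Znrf3), without Wnt4. No measured value entered the rule. Each gene is represented by its probe set of highest mean, and all levels are log2 intensities. The tissue was rat metanephric mesenchyme, the part of the embryonic kidney that gives rise to nephrons, dissected at embryonic day 13.5 and freed of ureteric bud with pins after trypsin and DNase. It was lysed at once (fresh) or grown on collagen-coated filters in DMEM/F12 medium that held insulin, transferrin, selenium, dexamethasone, prostaglandin, T3, FGF at 50 ng/ml and a TGF at 20 ng/ml. Cultures received no inducer (control, days 1 and 2), LIF, a cytokine of the interleukin-6 family, NGAL, a lipocalin, or ANX, an inducer that the labels give by this name alone. Induced cultures were harvested on days 1, 2, 3, 4, 5 and 7, which gave 21 groups of 2 biological replicates and 42 arrays. All cultures, controls included, carried the FGF and the TGF, and no control was grown past day 2.

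Wnt ligands are lipid-modified by Porcn and carried to the cell surface by Wls. At the membrane they bind Frizzled receptors with Lrp5 or Lrp6, which keeps beta-catenin (Ctnnb1) from the destruction complex of Axin, Apc and Gsk3b and lets it act with TCF factors in the nucleus. R-spondins, through Lgr receptors, hold back Znrf3, a ubiquitin ligase that removes Frizzleds, while secreted Frizzled-related proteins (the Sfrp genes and Frzb), Dkk proteins and Apcdd1 dampen the signal outside the cell. In the developing kidney Wnt signals from the ureteric bud induce the mesenchyme to form nephrons.

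Axin2, Nkd1, Apcdd1 and Tcf7 are known targets of beta-catenin, and they are also the 4 of 39 pathway genes with a RefSeq promoter whose window holds the TCF/LEF core letters CTTTGA on either strand (TCAAAG on the other). The windows, for each pathway gene the first listed, run from 250 bases before to 50 bases after the annotated start in the GRCr8 rat assembly. They are shown so that these letters can be set beside the levels of the same genes, and capitals mark the core.

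Axin2, chr10:94398535-94398834, + strand, core from -232 and -132: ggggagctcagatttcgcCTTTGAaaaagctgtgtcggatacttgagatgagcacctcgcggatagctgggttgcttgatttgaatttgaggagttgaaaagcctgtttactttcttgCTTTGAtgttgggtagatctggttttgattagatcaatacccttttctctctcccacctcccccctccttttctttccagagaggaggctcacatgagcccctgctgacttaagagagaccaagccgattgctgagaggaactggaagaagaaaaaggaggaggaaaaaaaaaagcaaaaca

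Nkd1, chr19:34722797-34723096, - strand, core from -141: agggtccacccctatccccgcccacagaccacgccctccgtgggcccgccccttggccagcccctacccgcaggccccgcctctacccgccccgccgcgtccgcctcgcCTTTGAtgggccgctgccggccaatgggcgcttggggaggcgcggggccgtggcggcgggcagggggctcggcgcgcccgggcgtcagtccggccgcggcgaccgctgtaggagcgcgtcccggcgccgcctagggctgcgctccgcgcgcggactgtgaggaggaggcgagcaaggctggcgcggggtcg

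Apcdd1, chr18:58655446-58655745, + strand, core from -214: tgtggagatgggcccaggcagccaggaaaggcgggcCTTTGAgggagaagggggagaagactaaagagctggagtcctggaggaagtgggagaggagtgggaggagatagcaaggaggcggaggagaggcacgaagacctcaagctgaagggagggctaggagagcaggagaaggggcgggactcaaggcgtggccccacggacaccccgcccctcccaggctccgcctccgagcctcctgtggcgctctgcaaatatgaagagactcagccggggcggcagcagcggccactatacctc

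Tcf7, chr10:36954230-36954529, - strand, core from -4: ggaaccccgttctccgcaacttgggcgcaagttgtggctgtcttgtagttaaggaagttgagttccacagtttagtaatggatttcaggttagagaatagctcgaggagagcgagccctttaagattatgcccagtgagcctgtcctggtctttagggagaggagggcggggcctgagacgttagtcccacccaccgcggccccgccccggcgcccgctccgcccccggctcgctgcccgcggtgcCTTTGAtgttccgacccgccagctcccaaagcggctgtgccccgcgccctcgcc

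The core was in 10.3% of the 39 windows of pathway genes and in 16.1% of all 33469 windows of the table. For pathway genes only the first window listed was searched, while the other share is over every window, so the units can differ. The letters of a STAT site, TTCNNNGAA, which read the same on both strands, were in the windows of Fzd4 and Lgr4 among these genes and in 8.87% of all windows. These are matches of letters, and nothing was measured at them. The 4 genes did not share a pattern of levels: Nkd1 fell with LIF and ANX against control, Apcdd1 fell in the first day of culture and rose by day 7 with LIF and ANX, Tcf7 fell by day 7 with LIF and NGAL, and Axin2 passed no test.

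A gene was tested when the mean of its highest group exceeded log2 5.79 (intensity 55.2, the 40th percentile of all values), used here as the threshold for signal over background. This left 11388 genes, 45 of the pathway genes among them, and Fzd5, Kremen1, Wif1, Wnt6, Wnt8b, Wnt9a, Wnt10a and Wnt16 did not reach it in any group. Of 9 tested mesenchyme markers Eya1, Wt1, Sall1 and Hoxa11 had means above 9 in every group, while Pax2 was at 8.65 in fresh tissue and at 7.10 to 9.36 over all groups, and Gdnf and Hoxd11 lay below the threshold in some. In day 2 controls 5 of the 9 were lower than in fresh tissue and none higher, beside 12.7% and 9.47% of all genes tested. None passed the test on day 1, beside 2.26% of all genes lower and 3.80% higher. The median change of the 9 was nearly as large on day 1 (-0.69) as on day 2 (-0.74), and Pax2 was at 7.25 in day 1 controls. The summed intensity of ureteric bud markers was 794.9 to 810 in fresh tissue and 790.7 to 879.7 in controls. In these groups Calb1, Cdh1, Krt8, Spint1 and Upk1a were below the threshold. Ret (means 6.11 to 6.15), Wnt11 (5.85 to 5.93) and Gata3 (6.09 in fresh tissue, 7.23 and 7.00 in controls) were above it. The summed intensity reached 1586 to 1787 with LIF, 818.8 to 1629 with NGAL and 2005 to 2023 with ANX on day 7. On that day 3, 2 and 4 of 10 tested bud markers were higher than on day 1. In the same order 0, 1 and 1 were lower. Of all genes tested 4.39%, 6.92% and 6.40% were higher and 6.51%, 8.60% and 7.43% lower. Calb1 stayed below the threshold in every group. Cdh1, a marker of bud and other epithelia, was at most 4.35 until day 4 and reached 6.73, 7.45 and 8.56 on day 7 with LIF, NGAL and ANX. Arrays differed in how much brighter the 3' than the 5' probe set of dap was, an RNA added at labelling, with log2 ratios from 0.77 to 2.35. The ratio was 1.97 and 2.04 in the day 2 controls and 1.97 in day 1 control replicate 1, against 0.77 in the other day 1 control and 1.06 and 1.08 in fresh tissue. Its part in the control comparisons was not tested beyond a fit with the ratio as a covariate and a fit without the 11 arrays above 1.7, which leaves 1 control array. In these whole-tissue samples fewer cells of a type and less RNA per cell cannot be told apart.

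Among the 45 tested genes 32 were above the threshold on all 42 arrays. The spread of a gene's group means, highest minus lowest, ran from 0.32 to 4.70 with a median of 1.17, beside a median standard deviation within groups of 0.28. It exceeded 2 for 8 genes, namely Dkk2 (4.70), Sfrp2 (4.61), Wnt5a (3.33), Lgr5 (3.29), Sfrp1 (2.73), Frzb (2.52), Fzd8 (2.50) and Lgr4 (2.37). Of these 8 genes 4 were secreted antagonists. The share of all genes tested with such a spread was not counted, so these counts only describe the pathway genes. The spread was under 0.5 for Wnt1, Wnt2b, Wnt7a and Axin1. Of the 45 genes 34 passed the limma test (Benjamini-Hochberg adjusted p under 0.05 over all 11388 genes) in at least 1 of 11 comparisons with a direction, in 95 results altogether. That is 75.6% of them, beside 69.4% of all genes tested. By role these were all 8 tested antagonists and both ligand processing genes, 5 of 6 Frizzleds, 5 of 6 genes of the R-spondin system, 7 of 10 transducers, 2 of 3 TCF factors, 4 of 7 ligands and 1 of 3 co-receptors.

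**Figure D1:**
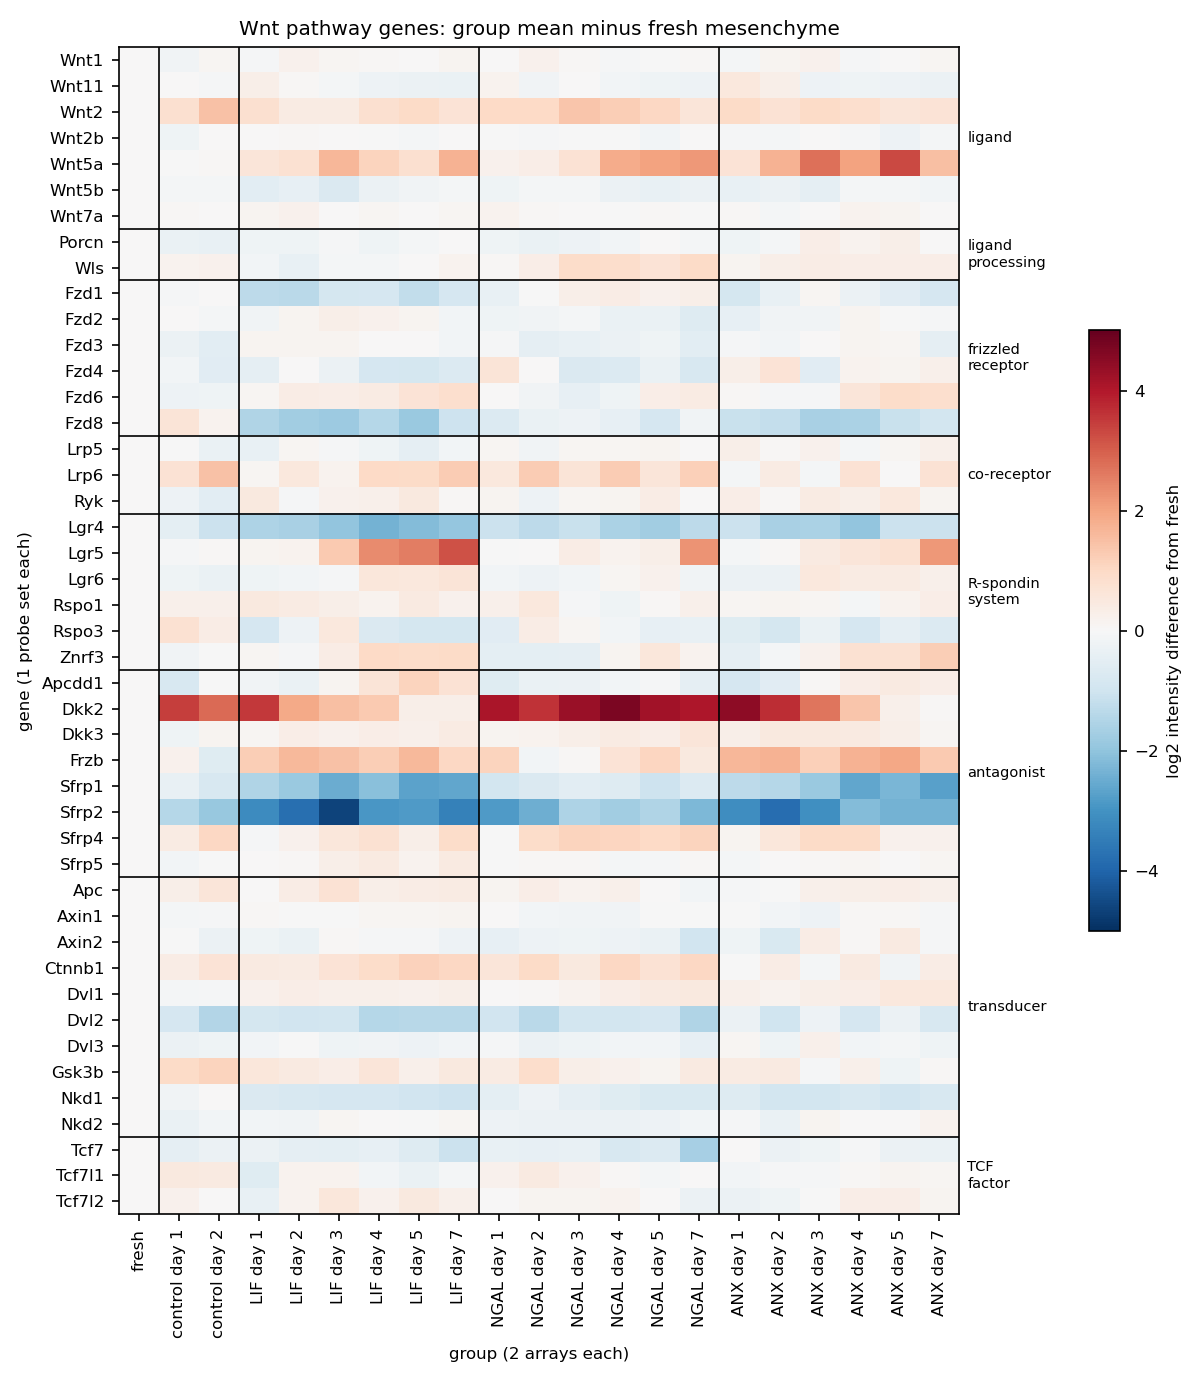
Heat map of the 45 tested Wnt pathway genes, 1 line per gene grouped by role and 1 column per group, coloured by the group's mean log2 intensity minus that of fresh mesenchyme (means of 2 arrays). Dkk2 is high in all NGAL columns and fades with LIF and ANX, Sfrp1 and Sfrp2 are below fresh in every culture, and Lgr5 appears on the later days.

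The pathway genes called after a day of culture without inducer were Dkk2 and Apcdd1. Against fresh tissue 1 of 45 genes rose on day 1 and 1 fell, beside 3.80% and 2.26% of all genes tested, with medians of -0.08 over the pathway genes and 0.00071 over all genes. At 2.22% and 2.22% the pathway genes did not stand apart from the share of all genes. The riser was Dkk2, a secreted ligand of Lrp5 and Lrp6 that blocks or modulates Wnt signals. It was at 4.52 and 4.09 in fresh tissue, below the threshold, at 7.51 and 8.01 in day 1 controls and at 7.22 and 7.06 in day 2 controls. All 4 control arrays lay above both fresh arrays. The difference was 3.46 on the log2 scale on day 1 (SE 0.72, limma adjusted p = 0.00441) and 2.83 on day 2 (SE 0.72, adjusted p = 0.00728), or 1.98 and 1.35 with fresh set to the threshold. The day 1 call was lost without fresh replicate 2 (adjusted p = 0.0634), and the day 2 call without that array or day 2 control replicate 1 (highest adjusted p = 0.0701). Apcdd1, a membrane protein that binds Wnt and Lrp5, went from 7.72 and 7.60 to 6.74 and 6.98 on day 1, without overlap, and stood at 7.67 and 7.60 on day 2. Its day 1 change (-0.80, SE 0.23, adjusted p = 0.0352) was not called when any of the 4 arrays was left out (range -0.92 to -0.68, highest adjusted p = 0.293). Neither call held without the high-ratio arrays (Dkk2 3.71, adjusted p = 0.0679, and Apcdd1 -0.68, adjusted p = 0.199).

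On day 2 without inducer 5 pathway genes were higher than in fresh tissue and 1 was lower, beside 9.47% and 12.7% of all genes (medians -0.02 and -0.05). Wnt2, a ligand of the beta-catenin branch, rose from 5.58 and 5.98 to 7.27 and 7.21, with the day 1 controls between at 6.42 and 6.72. Its change (1.46, SE 0.28, adjusted p = 0.000800) was called whichever array was left out. Sfrp4, a secreted Frizzled-related protein, went from 6.38 and 6.59 to 7.57 and 7.50 (1.05, SE 0.35, adjusted p = 0.0327). Gsk3b, the kinase that marks beta-catenin for destruction, went from 6.73 and 6.46 to 7.80 and 7.63 (1.12, SE 0.38, adjusted p = 0.0375). Apc, the scaffold of the destruction complex, went from 9.68 and 9.33 to 10.13 and 10.09 (0.60, SE 0.22, adjusted p = 0.0470). Sfrp2, another secreted Frizzled-related protein, was at 10.71 and 10.74 in fresh tissue, 9.32 and 9.25 on day 1 and 8.57 and 9.10 on day 2 (-1.89, SE 0.66, adjusted p = 0.0415 for day 2). The day 2 controls did not overlap fresh tissue for any of these 5 genes. The calls of Sfrp4, Gsk3b, Apc and Sfrp2 were each lost with any of the 4 arrays left out, with highest adjusted p of 0.162, 0.200, 0.321 and 0.214. With the dap ratio as a covariate Gsk3b (0.48, adjusted p = 0.173), Apc (0.56, adjusted p = 0.117) and Sfrp4 (0.88, adjusted p = 0.117) were not called. With the mean of probe sets the change of Apc was 0.32 (adjusted p = 0.135) and that of Sfrp4 0.65 (adjusted p = 0.0121). Skeletal muscle markers had a summed intensity of 4596 to 5192 in the day 2 controls against 1304 to 1359 in fresh tissue, where Myod1 and Myh3 were below the threshold, with 5 of 7 tested markers higher. The summed intensity of erythroid markers was 16330 to 18080 in fresh tissue, 4175 to 5809 on day 1 and 3037 to 3992 on day 2, with 3 and 5 of 5 lower. Of 8 endothelium markers 1 was lower on day 1 and 4 on day 2, and 5 of 9 mesenchyme markers were lower on day 2. Their part in these results was not tested.

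LIF and ANX each changed 11 pathway genes relative to the uninduced cultures of days 1 and 2. With LIF 4 of 45 were higher and 7 lower, beside 11.4% and 12.6% of all genes. With ANX 5 were higher and 6 lower, beside 11.2% and 9.12%. The pathway shares, 8.89% and 15.6% with LIF and 11.1% and 13.3% with ANX, were near those of all genes. Receptors, an R-spondin, a feedback inhibitor, a TCF factor and a secreted antagonist were among the genes called lower, and the largest rise was that of Frzb. Each comparison used 4 arrays against 4, and the 3 inducers share the control arrays. The medians over the 45 genes were 0.07 for LIF and -0.02 for ANX, against 0.03 and 0.03 over all genes tested.

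Values are given for day 1 replicates 1 and 2, then day 2 replicates 1 and 2. Fzd8, a Wnt receptor, was at 8.54, 7.48, 7.27 and 7.80 in controls, at 6.02, 5.71, 5.64 and 5.58 with LIF and at 5.98, 6.47, 6.32 and 6.01 with ANX. Every induced array lay below every control array, and 3 of the 4 LIF arrays were below the threshold. The change was -2.04 with LIF (SE 0.33, adjusted p = 0.000161, or -1.95 with means below the threshold set to it) and -1.58 with ANX (SE 0.33, adjusted p = 0.00189). Fzd1, another Frizzled, was at 10.35, 10.34, 10.36 and 10.46 in controls and at 9.15, 9.07, 8.87 and 9.24 with LIF, so that all LIF arrays were below the narrow range of the controls (-1.30, SE 0.24, adjusted p = 0.000533). With ANX it was at 9.33, 9.69, 9.88 and 10.16 and was not called (-0.61, adjusted p = 0.0722). Fzd3, a Frizzled known for axon guidance and planar polarity, was at 6.75, 7.12, 6.79 and 6.60 in controls and 7.27, 7.39, 7.47 and 7.25 with LIF, all higher (0.54, SE 0.16, adjusted p = 0.0187). Ryk, a Wnt co-receptor with an inactive kinase domain, was at 8.54, 9.02, 8.44 and 8.54 in controls, at 9.51, 9.53, 9.23 and 8.72 with LIF and at 9.38, 9.36, 9.19 and 8.99 with ANX. With each inducer 1 of the 4 arrays was below the highest control. Ryk rose with LIF (0.61, SE 0.15, adjusted p = 0.00463) and with ANX (0.59, SE 0.15, adjusted p = 0.00658).

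Rspo3, a secreted agonist that strengthens Wnt signals through Lgr receptors, was at 8.21, 8.56, 7.84 and 8.07 in controls. It was at 6.84, 6.66, 7.50 and 7.16 with LIF and at 6.97, 6.99, 6.91 and 6.53 with ANX, all below the lowest control. It fell with LIF (-1.13, SE 0.19, adjusted p = 0.000217) and with ANX (-1.32, SE 0.19, adjusted p = 5.1e-05). With NGAL, where no gene passed the test, it was at 7.03, 7.02, 8.27 and 7.69 (-0.67, SE 0.19, adjusted p = 0.307), overlapping the controls.

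Among the antagonists Frzb, a secreted Frizzled-related protein also called Sfrp3, was at 9.57, 10.23, 9.14 and 9.02 in controls. It was at 10.90, 10.89, 11.62 and 10.997 with LIF and at 11.45, 11.20, 11.80 and 11.02 with ANX, above all controls. It rose with LIF (1.61, SE 0.26, adjusted p = 0.000165) and with ANX (1.88, SE 0.26, adjusted p = 4.43e-05). Sfrp2 went the other way, with 9.32, 9.25, 8.57 and 9.10 in controls, 7.53, 7.66, 7.04 and 6.85 with LIF and 7.38, 7.89, 6.93 and 6.86 with ANX, again with no overlap. It fell with LIF (-1.79, SE 0.47, adjusted p = 0.00732) and with ANX (-1.80, SE 0.47, adjusted p = 0.00859). Dkk3, a divergent member of the Dkk family, was at 7.28, 7.34, 7.75 and 7.61 in controls and slightly higher, at 7.80, 7.86, 7.96 and 8.08, with ANX (0.43, SE 0.12, adjusted p = 0.0163).

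Of the ligands, Wnt5b, which mostly signals without beta-catenin, was at 7.74, 7.56, 7.62 and 7.73 in controls and lower, at 7.33, 7.12, 7.41 and 7.25, with LIF (-0.39, SE 0.12, adjusted p = 0.0174). Wnt5a, its close relative, was below the threshold in all controls (5.000, 5.30, 5.25 and 5.22). It was at 6.02, 5.72, 7.21 and 6.61 with ANX, above the controls on every array. The change was 1.20 (SE 0.39, adjusted p = 0.0330), or 0.60 with means below the threshold set to it. With LIF it was at 5.95, 5.64, 6.30 and 5.55 and was not called (0.67, adjusted p = 0.222).

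Inside the cell, Nkd1, a feedback inhibitor that binds Dishevelled, was at 7.94, 7.73, 7.97 and 8.16 in controls, at 7.19, 7.38, 7.10 and 7.36 with LIF and at 7.11, 7.62, 6.94 and 7.28 with ANX. All induced arrays were lower than all controls, with LIF (-0.69, SE 0.13, adjusted p = 0.000541) as with ANX (-0.71, SE 0.13, adjusted p = 0.000500). Tcf7l1, a TCF factor that acts mainly as a repressor, was at 9.65, 9.86, 9.76 and 9.68 in controls, 8.78, 8.55, 9.52 and 9.41 with LIF and 8.92, 9.38, 9.29 and 9.18 with ANX, without overlap. It fell with LIF (-0.67, SE 0.12, adjusted p = 0.000491) and with ANX (-0.54, SE 0.12, adjusted p = 0.00334). Dvl1, a Dishevelled that carries the signal from Frizzled, was at 6.88, 6.97, 6.92 and 7.01 in controls, at 7.29, 7.21, 7.42 and 7.30 with LIF and at 7.31, 7.23, 7.22 and 7.19 with ANX. It rose with LIF (0.36, SE 0.09, adjusted p = 0.00431) and with ANX (0.29, SE 0.09, adjusted p = 0.0199). Apc was at 9.74, 9.85, 10.13 and 10.09 in controls and lower, at 9.51, 9.37, 9.33 and 9.67, with ANX (-0.48, SE 0.15, adjusted p = 0.0277).

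NGAL gave no call among the pathway genes in the limma test, beside 0% of all genes higher and 0% lower. At an unadjusted p under 0.05 there were 5 of 45 genes, with Frzb (0.69) and Ryk (0.32) higher and Rspo3 (-0.67), Fzd8 (-0.91) and Nkd1 (-0.29) lower. Over all genes 359 were higher and 440 lower at that level.

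**Figure D2:**
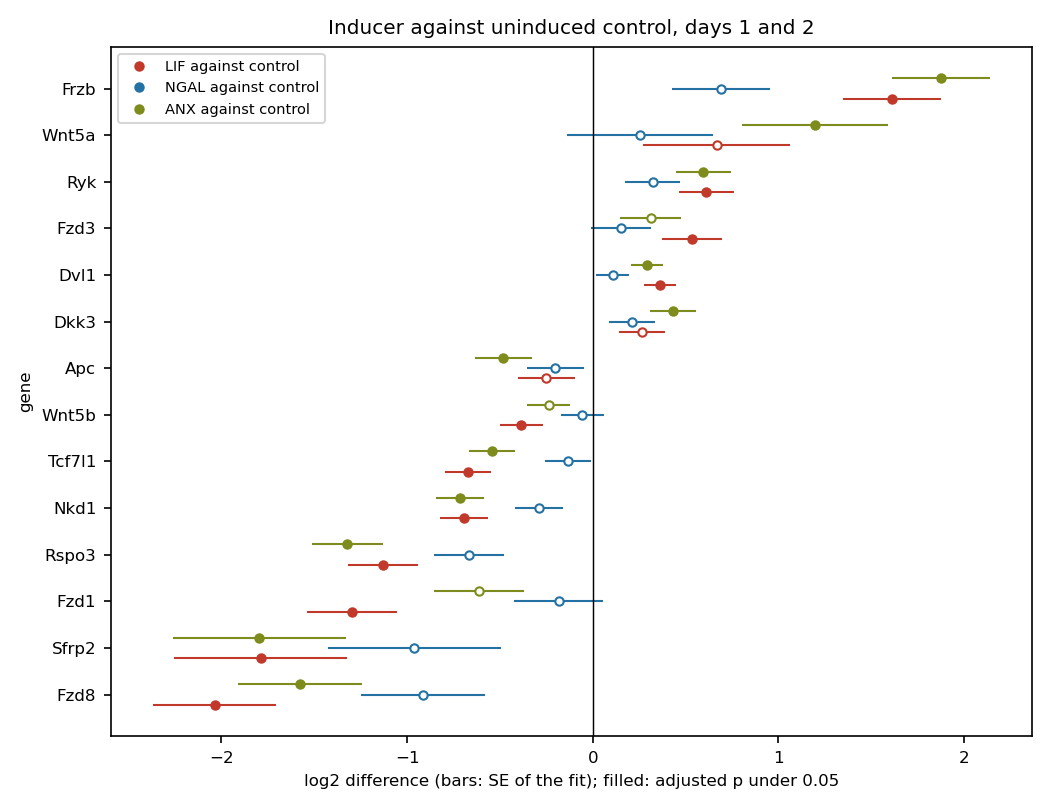
Log2 difference from uninduced control over days 1 and 2 for the 14 pathway genes called with LIF or ANX; points are estimates from 4 arrays against 4, bars the SE of the fit, and filled points have adjusted p under 0.05. Fzd8, Sfrp2 and Rspo3 lie to the left and Frzb to the right with LIF and ANX, and all NGAL points are open.

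Of these calls 9 of 11 with LIF and 6 of 11 with ANX held with each of the 8 arrays left out in turn. With LIF, Fzd3 was lost without day 1 control replicate 1, day 2 control replicate 2, LIF day 1 replicate 2 or LIF day 2 replicate 1 (0.44 to 0.63, highest adjusted p = 0.107). Wnt5b was lost without either of those controls, LIF day 1 replicate 2 or LIF day 2 replicate 2 (-0.44 to -0.33, highest adjusted p = 0.0849). With ANX, Ryk was lost without day 1 control replicate 1 (adjusted p = 0.0619). Dkk3 was lost without that array, day 2 control replicate 2 or ANX day 2 replicate 2 (highest adjusted p = 0.0658), and Dvl1 without replicate 1 of either control day or either ANX day (highest adjusted p = 0.0859). Apc was lost without any array but ANX day 2 replicate 2 (highest adjusted p = 0.134). Wnt5a was lost without any but day 1 control replicate 2 and ANX day 2 replicate 2 (highest adjusted p = 0.129), and was not called with the dap ratio as a covariate (1.06, adjusted p = 0.0640). With the mean of probe sets Dvl1 was not called with LIF (0.21, adjusted p = 0.0568) or ANX (0.17, adjusted p = 0.139), nor was Apc with ANX (-0.26, adjusted p = 0.0924). Without the high-ratio arrays day 1 control replicate 2 is the lone control, assumed to vary like the other groups. Then Rspo3 (-1.81, adjusted p = 0.00471) and Tcf7l1 (-1.20, adjusted p = 0.0277) were called with LIF and Rspo3 (-1.58, adjusted p = 0.0151) with ANX. The other changes kept their sign and were not called, among them Fzd8 at -1.62 and -1.26, Frzb at 0.66 and 1.09 and Sfrp2 at -1.65 and -1.62 with LIF and ANX.

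Markers of other cells moved with these inducers. The summed intensity of renal stroma markers was 22640 to 25440 in controls, 11330 to 16590 with LIF, 13020 to 18980 with ANX and 19380 to 24320 with NGAL. With LIF 6 and with ANX 5 of 11 tested markers were lower and none higher, and only Lum (LIF day 2) and Tbx18 (ANX day 2) had a group mean below the threshold on these days. Of 8 endothelium markers 5 were lower with LIF, and 4 lower and 2 higher with ANX. Of 5 erythroid markers 4 were lower with each, and of 5 macrophage markers 1 with LIF and 2 with ANX. Their part in the results on Wnt genes was not tested.

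The largest changes called from day 1 to day 7 were those of Dkk2 with LIF and ANX, Lgr5 with every inducer and Wnt5a with NGAL. With LIF 3 genes rose and 2 fell, beside 4.39% and 6.51% of all genes (medians 0.09 and -0.04). With NGAL 5 rose and 1 fell, beside 6.92% and 8.60% (medians -0.0093 and -0.07). With ANX 3 rose and 2 fell, beside 6.40% and 7.43% (medians 0.15 and -0.04). These comparisons have 2 arrays on each side. When limma was fitted on the 4 arrays compared alone, 1, 0 and 3 genes were called with LIF, NGAL and ANX.

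Lgr5, an R-spondin receptor and stem cell marker that is also found in early nephrons, was below the threshold in fresh tissue, in all controls and in all induced arrays of days 1 and 2. With LIF it was at 6.24 and 5.78 on day 3, 7.61 and 6.53 on day 4, 8.11 and 6.39 on day 5 and 7.59 and 8.20 on day 7. With NGAL it was at 5.23 and 4.77 on day 5 and 6.45 and 7.49 on day 7, and with ANX at 5.39 and 5.51 and 6.13 and 7.67. Both LIF arrays were above the threshold from day 4, and both NGAL and both ANX arrays on day 7 only. The rise from day 1 to day 7 was 3.05 with LIF (SE 0.45, adjusted p = 0.000184), 2.27 with NGAL (adjusted p = 0.00173) and 2.29 with ANX (adjusted p = 0.00160), or 2.11, 1.19 and 1.11 with means below the threshold set to it. The ANX call was lost without ANX day 7 replicate 2 (1.51, adjusted p = 0.0613) and without all high-ratio arrays, of which that is 1 (1.51, adjusted p = 0.0822). Lgr6, a related receptor, was at 5.74 and 5.74 on day 1 and at 7.32 and 5.86 on day 7 with LIF. Its rise (0.85, SE 0.28, adjusted p = 0.04996) was 0.12 without LIF day 7 replicate 1 (adjusted p = 0.792) and was not called without either day 1 array.

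Dkk2 was above the threshold in every culture on day 1. With NGAL it was at 8.60 and 8.15 on day 1, 8.89 and 9.12 on day 4 and 8.86 and 7.86 on day 7, a change that was not called. With LIF it was at 7.98 and 7.74 on day 1, 6.52 and 5.90 on day 2 and 3.72 and 5.44 on day 7. With ANX it was at 8.49 and 9.07 on day 1, 8.77 and 7.22 on day 2, 5.19 and 8.81 on day 3, 5.98 and 5.40 on day 4 and 4.19 and 4.50 on day 7. The day 7 arrays with LIF and ANX were below the threshold, as fresh tissue was, and those with NGAL above it. Dkk2 fell with LIF (-3.28, SE 0.72, adjusted p = 0.00570, or -2.07 with means set to the threshold) and with ANX (-4.43, SE 0.72, adjusted p = 0.000289, or -2.99). The LIF call was lost without LIF day 7 replicate 1 (-2.42, adjusted p = 0.0871).

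Wnt5a was at 5.36 and 5.44 on day 1 with NGAL and at 7.55 and 6.53 on day 4, 7.69 and 6.69 on day 5 and 8.23 and 6.45 on day 7. It rose by day 7 (1.94, SE 0.56, adjusted p = 0.0200, or 1.55 with means set to the threshold), and the call was lost without either NGAL day 1 array or NGAL day 7 replicate 1 (1.05 to 2.83, highest adjusted p = 0.366). With ANX it was at 7.61 and 8.27 on day 3, 7.65 and 6.72 on day 4, 7.75 and 9.21 on day 5 and 7.32 and 6.07 on day 7, and the change from day 1 to day 7 was not called. Wnt11, a ligand known from the ureteric bud tip, went with ANX from 6.31 and 6.59 on day 1 to 5.63 and 5.64 on day 7, below the threshold (-0.82, SE 0.23, adjusted p = 0.0185, or -0.67 with that mean set to the threshold). That call was lost without ANX day 1 replicate 2 or either day 7 array (highest adjusted p = 0.169). Wls, the ligand carrier, went with NGAL from 8.77 and 9.31 to 9.92 and 9.99 (0.91, SE 0.30, adjusted p = 0.0379), a call lost with any of the 4 arrays left out (highest adjusted p = 0.244).

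Znrf3, the ligase that clears Frizzleds, went with ANX from 7.11 and 7.47 on day 1 to 8.77 and 9.18 on day 7 (1.68, SE 0.42, adjusted p = 0.00899). The call was lost without ANX day 1 replicate 1 or ANX day 7 replicate 2 (highest adjusted p = 0.0845). Apcdd1 rose with LIF from 7.67 and 7.28 to 8.57 and 8.20 (0.91, SE 0.23, adjusted p = 0.0117) and with ANX from 6.95 and 6.71 to 7.99 and 8.005 (1.16, SE 0.23, adjusted p = 0.00138), with no overlap between days. The LIF call was lost without LIF day 1 replicate 2 or LIF day 7 replicate 1 (highest adjusted p = 0.144). Sfrp4 went with NGAL from 6.87 and 6.09 to 7.70 and 7.53 (1.13, SE 0.35, adjusted p = 0.0297), a call lost without NGAL day 1 replicate 2 or either day 7 array (highest adjusted p = 0.336). The mean of its probe sets gave 0.57 (adjusted p = 0.0327). Dvl1 went with NGAL from 6.95 and 7.10 to 7.55 and 7.48 (0.49, SE 0.12, adjusted p = 0.00898), lost without replicate 1 of either day (highest adjusted p = 0.0913). Tcf7, a TCF factor also known as TCF-1, fell with NGAL from 8.06 and 8.53 to 6.51 and 7.46 (-1.31, SE 0.23, adjusted p = 0.000506) and kept that call with each array left out. With LIF it went from 8.71 and 8.01 to 7.53 and 7.61 (-0.79, SE 0.23, adjusted p = 0.0258), lost without LIF day 1 replicate 1 or either day 7 array (highest adjusted p = 0.343). With ANX it was at 8.74 and 8.62 on day 1 and 8.40 and 8.27 on day 7 and was not called.

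**Figure D3:**
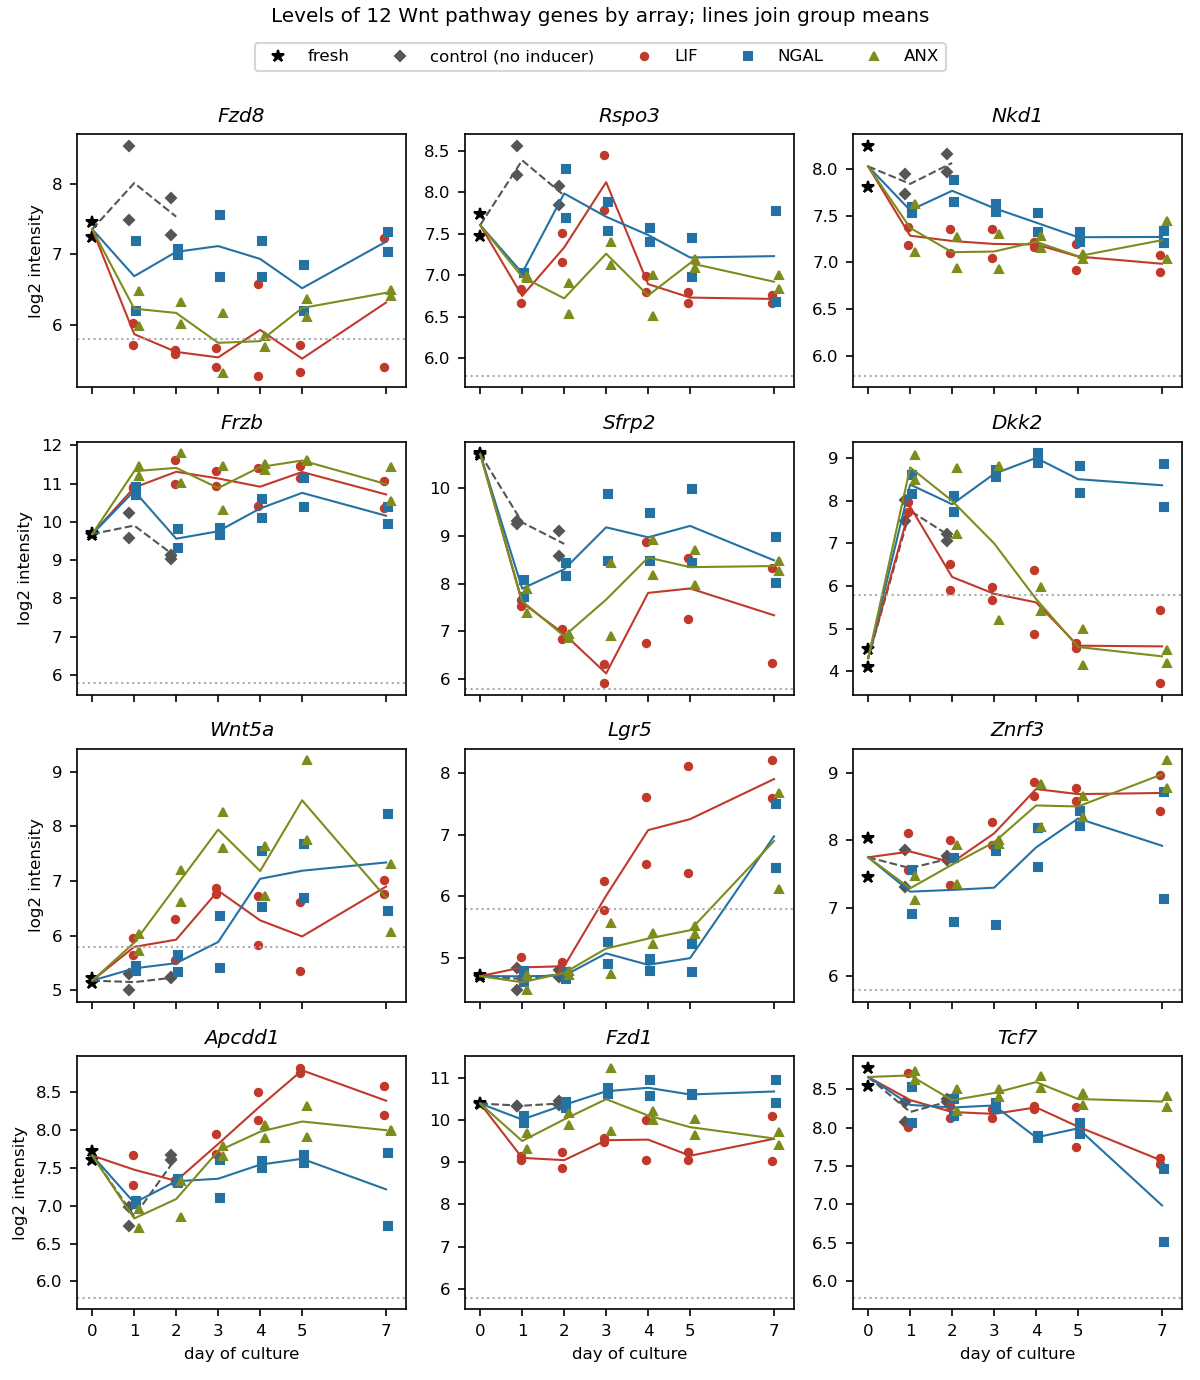
Log2 intensity of 12 pathway genes against day of culture (day 0 is fresh tissue); each marker is 1 array, lines join group means, and the dotted line is the threshold of 5.79. Fzd8 and Sfrp2 are lower with LIF and ANX than in controls on days 1 and 2, Dkk2 is at 7.72 or above in all NGAL arrays, and Lgr5 rises first with LIF.

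Markers of nephron epithelium rose over the same days, 5 of 8 with LIF and 7 with NGAL and with ANX. Their summed intensity was 755.8 to 1496 in induced arrays of day 1 and 1988 to 6920 on day 7. Endothelium markers fell, 4, 5 and 6 of 8 with LIF, NGAL and ANX, and so did 3 of 5 erythroid markers with each. The part of these cells in the results was not tested. The LIF day 7 replicates differed from each other, with replicate 1 at 6.34 for Sfrp2 and 5.40 for Fzd8 and replicate 2, an array of high dap ratio, at 8.33 and 7.23. Renal stroma markers had a summed intensity of 8808 to 14990 in these arrays.

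Averaged over 6 days, NGAL cultures had more Dkk2, Sfrp1, Sfrp2, Fzd1 and Fzd8 signal and less Frzb signal than LIF or ANX cultures. With LIF against NGAL 12 of 45 genes were higher and 12 lower, beside 21.5% and 20.3% of all genes (medians 0.04 and 0.03). With NGAL against ANX 10 were higher and 10 lower, beside 15.3% and 22.2% (medians -0.03 and -0.04). With LIF against ANX 2 were higher and 3 lower, beside 1.63% and 3.37% (medians -0.06 and -0.01). LIF against ANX thus had the fewest calls among the pathway genes as among all genes. The comparisons use 12 arrays an inducer, averaged over days, and share arrays. The dap ratio differed between inducers. In replicate 1 it ran from 0.88 to 1.17 with ANX, 0.88 to 1.45 with LIF and 1.32 to 1.63 with NGAL. In replicate 2 it ran from 0.84 to 2.35, 1.01 to 2.30 and 0.77 to 2.15. Its part in these differences was not tested beyond the covariate fit and the fit without arrays above 1.7. Levels are given as the lowest, median and highest of the 12 arrays, and these ranges overlapped for all genes called.

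Among antagonists Dkk2 was at 3.72, 5.78 and 7.98 with LIF, at 7.72, 8.58 and 9.12 with NGAL and at 4.15, 5.69 and 9.07 with ANX. It was lower with LIF than with NGAL on all 6 days, without overlap within any day (-2.69, SE 0.29, adjusted p = 4.62e-07, or -2.26 with means set to the threshold). It was higher with NGAL than with ANX (2.07, SE 0.29, adjusted p = 1.64e-05, or 1.61) on 4 of 6 days. Sfrp1, a secreted Frizzled-related protein, was at 6.42, 8.27 and 9.18 with LIF, at 8.97, 9.62 and 10.05 with NGAL and at 7.13, 8.15 and 9.79 with ANX. It was higher with NGAL on all 6 days than with LIF (-1.45, SE 0.27, adjusted p = 0.000179 for LIF against NGAL) and than with ANX (1.28, SE 0.27, adjusted p = 0.000865 for NGAL against ANX). Sfrp2 was at 5.91, 7.14 and 8.87 with LIF, at 7.72, 8.45 and 9.99 with NGAL and at 6.86, 8.08 and 8.91 with ANX, and it too was higher with NGAL on all 6 days (-1.39, SE 0.27, adjusted p = 0.000225 and 0.77, SE 0.27, adjusted p = 0.0283 for the same pairs). Frzb ran the other way, at 10.36, 11.03 and 11.62 with LIF, 9.31, 10.25 and 11.14 with NGAL and 10.31, 11.44 and 11.80 with ANX. It was lower with NGAL on all 6 days than with either (0.81, SE 0.15, adjusted p = 0.000166 and -1.04, SE 0.15, adjusted p = 2.22e-05). Apcdd1 was at 7.28, 8.04 and 8.82 with LIF, 6.74, 7.42 and 7.69 with NGAL and 6.71, 7.83 and 8.31 with ANX, highest with LIF by its mean on all 6 days. It was called in all 3 pairs, LIF against NGAL (0.67, SE 0.09, adjusted p = 6.41e-06), LIF against ANX (0.40, SE 0.09, adjusted p = 0.0134) and NGAL against ANX (-0.27, SE 0.09, adjusted p = 0.0234).

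Among receptors Fzd1 was at 8.87, 9.19 and 10.10 with LIF, at 9.94, 10.60 and 10.96 with NGAL and at 9.33, 9.82 and 11.25 with ANX. Its means kept the order LIF, ANX, NGAL from low to high on all 6 days, with differences of -1.20 for LIF against NGAL (SE 0.14, adjusted p = 8.75e-07), -0.60 for LIF against ANX (adjusted p = 0.0128) and 0.60 for NGAL against ANX (adjusted p = 0.00181). Fzd8 was at 5.27, 5.66 and 7.23 with LIF, 6.19, 7.02 and 7.56 with NGAL and 5.31, 6.14 and 6.50 with ANX. It was higher with NGAL on all 6 days than with LIF (-1.12, SE 0.19, adjusted p = 6.97e-05) and than with ANX (0.81, SE 0.19, adjusted p = 0.00207). Fzd3 was at 6.96, 7.26 and 7.52 with LIF, 6.27, 6.95 and 7.29 with NGAL and 6.60, 7.18 and 7.49 with ANX, lowest with NGAL by its mean on all 6 days (0.37, SE 0.09, adjusted p = 0.00262 for LIF against NGAL). Fzd2, a Frizzled that can bind Wnt5a, was at 9.08, 9.78 and 10.24 with LIF and 8.76, 9.38 and 9.80 with NGAL (0.37, SE 0.09, adjusted p = 0.00303). Thus Fzd1 and Fzd8 were lower, and Fzd2, Fzd3 and Fzd6 (0.46, SE 0.15, adjusted p = 0.0176) higher, with LIF than with NGAL. Lgr5 was at 4.68, 6.31 and 8.20 with LIF, 4.62, 4.85 and 7.49 with NGAL and 4.49, 5.31 and 7.67 with ANX. It was higher with LIF on all 6 days than with NGAL (1.10, SE 0.18, adjusted p = 5.5e-05) and than with ANX (0.96, SE 0.18, adjusted p = 0.00314), or by 0.65 and 0.66 with means set to the threshold.

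Rspo3 was at 6.66, 6.82 and 8.45 with LIF, 6.68, 7.49 and 8.27 with NGAL and 6.51, 6.99 and 7.39 with ANX. NGAL exceeded ANX (0.48, SE 0.11, adjusted p = 0.00170) on all 6 days and LIF (-0.35, SE 0.11, adjusted p = 0.0127 for LIF against NGAL) on 5 of 6. The mean of its probe sets gave -0.18 for LIF against NGAL and was not called (adjusted p = 0.0601). Of the ligand side, Wls was at 8.54, 8.86 and 9.71 with LIF and 8.77, 9.82 and 10.08 with NGAL, higher with NGAL on all 6 days (-0.72, SE 0.12, adjusted p = 5.5e-05 for LIF against NGAL). Wnt5a was at 5.35, 6.46 and 7.03 with LIF, 5.34, 6.40 and 8.23 with NGAL and 5.72, 7.26 and 9.21 with ANX. It was highest with ANX, against LIF (-0.89, SE 0.23, adjusted p = 0.0222 for LIF against ANX) as against NGAL (-0.79, SE 0.23, adjusted p = 0.00887), on 5 of 6 days each. Porcn, the enzyme that adds the lipid to Wnt ligands, was at 6.38, 6.60 and 6.95 with NGAL and 6.49, 6.82 and 7.28 with ANX (-0.26, SE 0.07, adjusted p = 0.00378, or -0.41 with the mean of probe sets).

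Inside the cell Nkd1 was at 6.89, 7.18 and 7.38 with LIF, 7.21, 7.53 and 7.89 with NGAL and 6.93, 7.14 and 7.62 with ANX, highest with NGAL by its mean on all 6 days (-0.32, SE 0.07, adjusted p = 0.00138 for LIF against NGAL and 0.29, SE 0.07, adjusted p = 0.00383 for NGAL against ANX). Its relative Nkd2 went the other way near the threshold, at 5.68, 5.90 and 6.33 with LIF, 5.58, 5.72 and 5.89 with NGAL and 5.63, 5.91 and 6.42 with ANX (0.23, SE 0.08, adjusted p = 0.0169 and -0.26, SE 0.08, adjusted p = 0.00984 for the same pairs). Tcf7 was at 7.53, 8.18 and 8.71 with LIF, 6.51, 8.06 and 8.53 with NGAL and 8.21, 8.47 and 8.74 with ANX. It was highest with ANX by its mean on all 6 days (-0.37, SE 0.09, adjusted p = 0.0214 for LIF against ANX and -0.52, SE 0.09, adjusted p = 0.000171 for NGAL against ANX). For the remaining calls, LIF was above NGAL for Znrf3 (0.63), Lgr6 (0.30), Sfrp5 (0.24), Apc (0.23) and Axin1 (0.15), and below it for Lgr4 (-0.57), Sfrp4 (-0.42), Wnt2 (-0.36) and Tcf7l1 (-0.27). NGAL was above ANX for Sfrp4 (0.36) and Wls (0.34), and below it for Znrf3 (-0.49), Fzd6 (-0.39), Fzd3 (-0.26) and Ryk (-0.22). With the mean of probe sets Sfrp4 was at -0.19 for LIF against NGAL (adjusted p = 0.0384), and neither Sfrp4 (0.17, adjusted p = 0.0753) nor Ryk (-0.28, adjusted p = 0.0511) was called for NGAL against ANX.

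**Figure D4:**
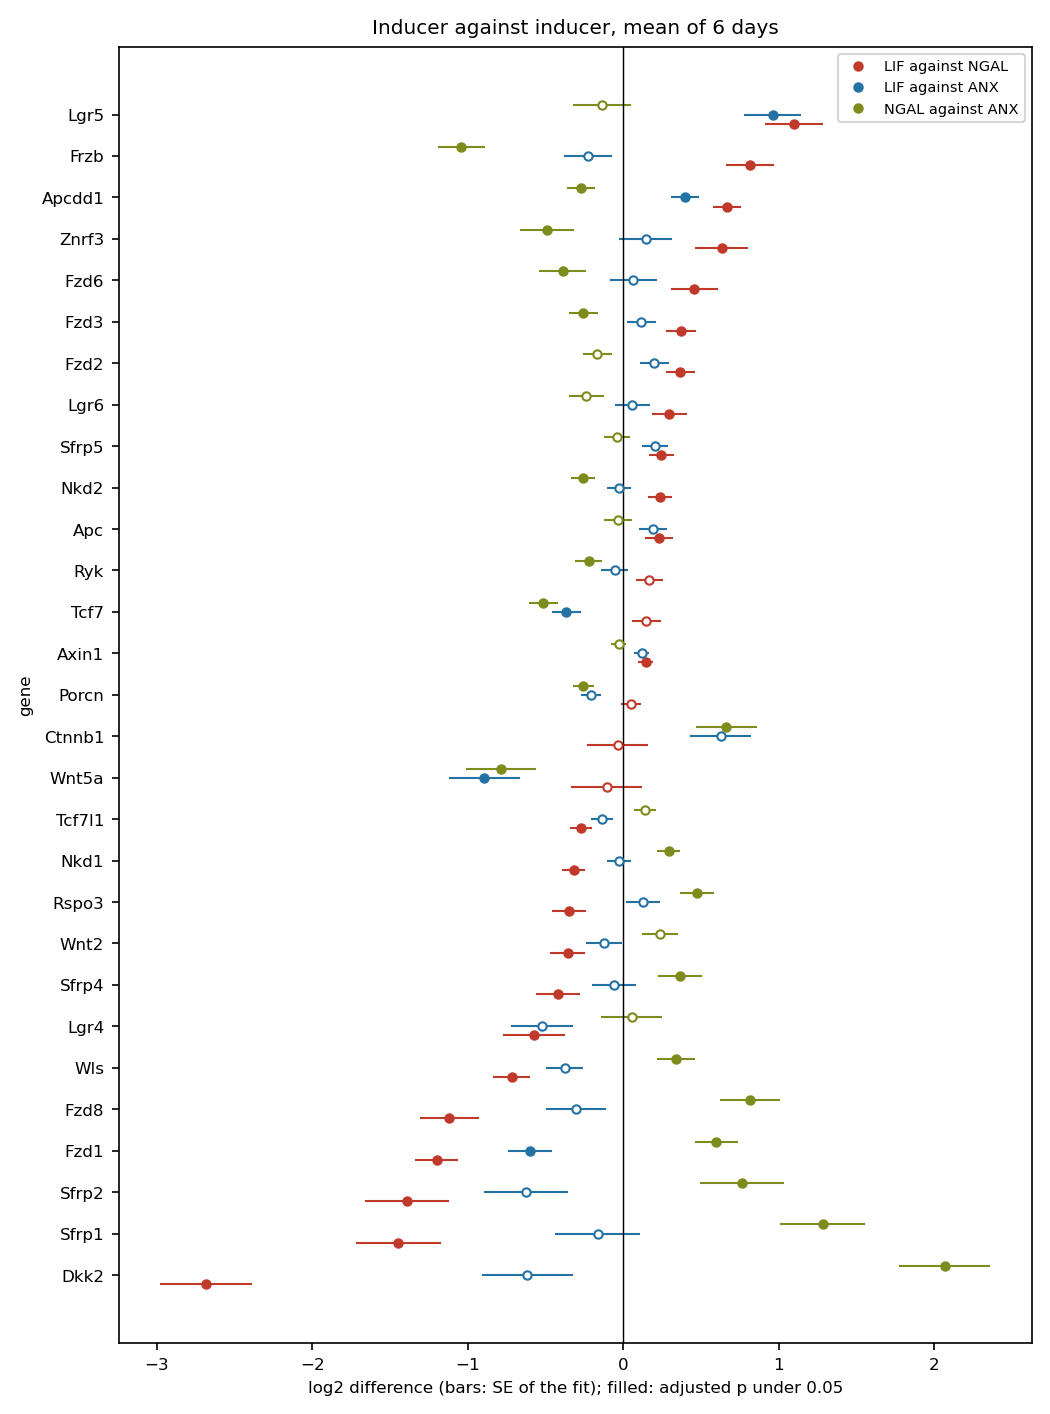
Log2 difference between inducers as the mean of 6 days for the 29 pathway genes called in any pair; points are estimates from 12 arrays against 12, bars the SE of the fit, and filled points have adjusted p under 0.05. Dkk2, Sfrp1, Sfrp2, Fzd1 and Fzd8 are higher with NGAL than with LIF or ANX, and Frzb, Znrf3, Fzd6 and Fzd3 are lower.

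With each of 24 arrays left out in turn, 19 of 24 calls of LIF against NGAL held each time. Apc was lost in 14 cases and Lgr6 in 16 (adjusted p up to 0.111 and 0.0884). Lgr4 was lost without LIF day 7 replicate 1, NGAL day 1 replicate 2 or NGAL day 5 replicate 2 (up to 0.0628), Sfrp4 without LIF day 1 replicate 2, LIF day 4 replicate 1 or NGAL day 1 replicate 1 (up to 0.0520), and Fzd6 without NGAL day 3 replicate 1 (0.0501). For NGAL against ANX 12 of 20 calls held. Sfrp4 was lost in 17 cases (adjusted p up to 0.129), Fzd6 in 15 (0.120), Ryk in 15 (0.110), Fzd3 in 10 (0.0940), Znrf3 in 9 (0.0760), Sfrp2 in 8 (0.0738), Wls in 8 (0.0783) and Apcdd1 in 4 (0.0635). For LIF against ANX 3 of 5 held, Wnt5a being lost in 9 cases (-1.02 to -0.77, adjusted p up to 0.0610) and Tcf7 without LIF day 1 replicate 2, LIF day 2 replicate 2 or ANX day 2 replicate 1 (up to 0.0566). Renal stroma markers again moved with the inducer, with 9 of 11 lower and 1 higher in LIF than in NGAL, and 9 higher and 1 lower in NGAL than in ANX. Of 7 skeletal muscle markers 5 were lower in LIF than in NGAL and 7 higher in NGAL than in ANX, with a summed intensity of 9535 to 18030 with NGAL and 2552 to 2618 with ANX on day 4. Of 9 mesenchyme markers 4 were higher in LIF than in NGAL and 7 lower in NGAL than in ANX (median -0.58). Nephron epithelium markers ran the same way, 3 and 3 of 8, while of 8 endothelium markers 3 were lower and 1 higher in LIF than in NGAL, and 4 higher and 2 lower in NGAL than in ANX. Of 5 erythroid markers 3 were lower in LIF than in NGAL and 3 higher in NGAL than in ANX. What part these cells had in the differences was not tested.

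The test of inducer by day, which asks whether the course over days differs between inducers, called none of the 45 genes, beside 0.0351% (4) of all genes. Of the pathway genes 6 had an unadjusted p under 0.05 in limma, and Dkk2 had the smallest (0.00223, adjusted p = 0.299), followed by Rspo3, Tcf7l1, Apcdd1, Wnt5a and Lgr5. The different courses of Dkk2 and Lgr5 described above are therefore not shown to differ by this test.

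For beta-catenin itself the probe sets disagreed. Ctnnb1 is represented by 1373067_at, which was called higher with NGAL than with ANX (0.66, SE 0.20, adjusted p = 0.0106). It was at 12.23, 13.35 and 13.79 with NGAL and 12.19, 12.39 and 13.32 with ANX. Both other tested probe sets went the other way, 1373470_at (-0.42, adjusted p = 0.0235) and 1369733_at (-0.68, adjusted p = 0.0557), and the mean of all probe sets gave -0.09 (adjusted p = 0.264). No direction is therefore given for Ctnnb1. In ANX cultures 1373067_at was at 13.16, 13.32 and 13.19 in replicate 2 of days 2, 4 and 7 and between 12.19 and 12.41 in the other 9 arrays. Those 3 arrays had dap ratios of 2.35, 1.78 and 2.20 and the others 0.84 to 1.17. Probe set 1369733_at was at 9.58, 10.07 and 9.70 in the same 3 arrays and at 11.13 or above in the others. Lrp6, the co-receptor, split in the same way, at 9.59, 9.99 and 9.86 against 8.24 to 8.60. With LIF 1373067_at was also high at ratios between those of the 2 sets of ANX arrays. It was at 13.73 in day 3 replicate 1 (ratio 1.25) and at 13.62 and 13.53 on day 5 (1.18 and 1.26). Lrp6 was at 9.58, 9.49 and 9.49 in those 3 arrays. In LIF replicate 2 of days 2, 4 and 7, of high ratio, 1373067_at was at 13.15, 13.07 and 13.31. At ratios of 1.11, 0.88 and 1.01 it was at 12.36, 12.46 and 12.45 (LIF day 1 replicate 1, day 2 replicate 1 and day 3 replicate 2). In NGAL day 4 replicate 2 it was at 13.21 with a ratio of 0.77. The part of the ratio in these splits was not tested. With the ratio as a covariate the difference in 1373067_at was 0.61 (adjusted p = 0.00714 in limma), and in arrays at or below 1.7 it was 0.95. The ANX arrays kept below that limit had ratios of 0.84 to 1.17, while the NGAL arrays kept ran from 0.77 to 1.63. Inducer and ratio thus cannot be told apart by the limit, and the covariate takes the relation to be linear. Over all genes called, 46 pairings of a call with another tested probe set of the gene could be made, and the 2 of opposite sign were those of Ctnnb1.

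**Figure D5:**
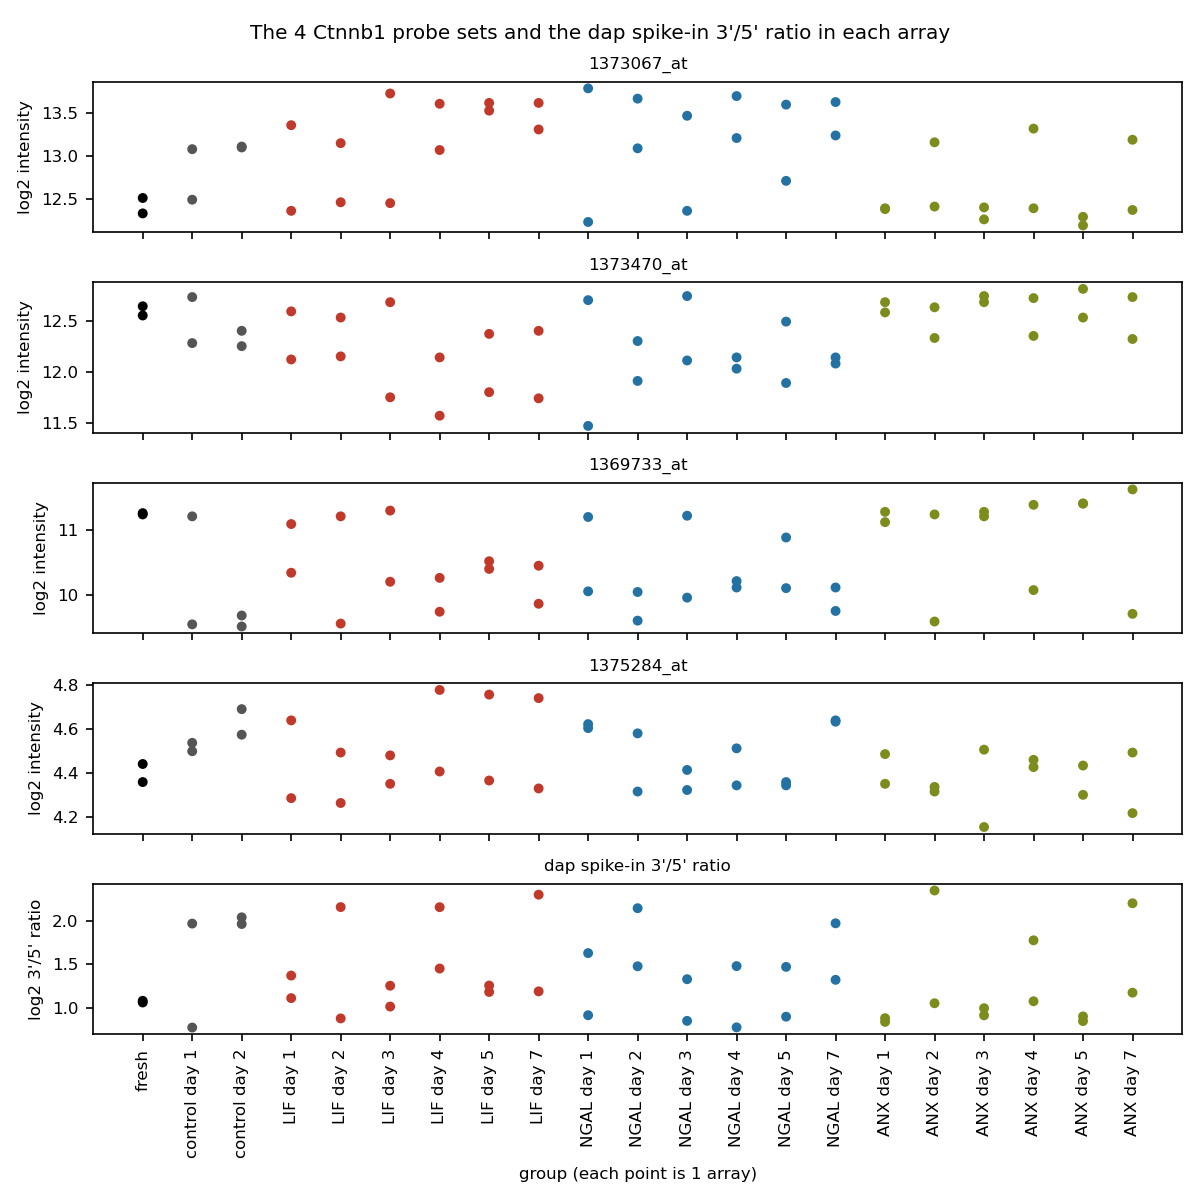
Log2 intensity of the 4 Ctnnb1 probe sets (upper panels) and the log2 ratio of 3' to 5' dap signal (lowest panel) in each of 42 arrays, 1 point per array, ordered by group. In ANX cultures the arrays that stand apart, high for 1373067_at and low for 1369733_at, are replicate 2 of days 2, 4 and 7, the arrays of high ratio. In LIF and NGAL cultures 1373067_at is also high on arrays with ratios of 1.18 to 1.63, and on NGAL day 4 replicate 2 (0.77).

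The 11 tested genes with no call were the ligands Wnt1, Wnt2b and Wnt7a, Fzd4, Lrp5, Lrp6, Rspo1, Axin2, Dvl2, Dvl3 and Tcf7l2. Lrp6 had the largest difference among co-receptors, from 8.46 and 8.57 in fresh tissue to 10.01 and 9.98 in day 2 controls (1.48, SE 0.64, adjusted p = 0.0978). Dvl2, a Dishevelled above the threshold on 4 arrays, differed by -1.47 in the same comparison (SE 0.58, adjusted p = 0.0698), or by -0.21 with the day 2 control mean, which is below the threshold, set to it. The dap ratio was 1.97 and 2.04 in day 2 controls and 1.06 and 1.08 in fresh tissue. In ANX cultures Dvl2, like Lrp6, split with the ratio. It was at 4.52, 4.54 and 4.49 in replicate 2 of days 2, 4 and 7 and at 5.49 to 5.94 in the other arrays. The part of the ratio was not tested. Fzd4, a receptor known from vessel growth, was at 10.14 and 10.46 on day 1 and 7.92 and 9.83 on day 7 with NGAL (-1.42, SE 0.52, adjusted p = 0.0656). Axin2, the feedback gene often read as a reporter of beta-catenin activity, was at 6.54 and 7.36 and 6.33 and 6.46 in those groups (-0.55, SE 0.36, adjusted p = 0.315), with a standard deviation within groups of 0.38 and group means from 6.39 to 7.78. Tcf7l2, a TCF factor of the beta-catenin branch, was at 9.18 and 9.08 on day 1 and 10.18 and 9.31 on day 7 with LIF (0.61, SE 0.23, adjusted p = 0.0873). The largest differences of Rspo1 (-0.27, SE 0.20, adjusted p = 0.412, LIF day 7 against day 1) and Wnt2b (-0.22, SE 0.16, adjusted p = 0.422, day 1 control against fresh) were smaller.

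Other genes of the pathway were read from 4 lists, whose counts stand beside 11.4% and 12.6% of all genes higher and lower with LIF against control and 11.2% and 9.12% with ANX. Of 33 tested further components of the beta-catenin branch, 2 were higher and 5 lower with LIF against control and 3 and 6 with ANX, with medians of -0.09 and -0.06. Dact1, which binds Dishevelled, fell most, with LIF (-2.24, SE 0.31) and with ANX (-2.34, SE 0.31), and the kinase Nlk rose by 0.53 and 0.64. Lef1, the TCF/LEF factor outside the Tcf7 family, was lower in day 2 controls than in fresh tissue (-1.39, SE 0.25) and fell from day 1 to day 7 with LIF (-1.02), NGAL (-1.41) and ANX (-1.65). It was called higher with ANX than in control (0.62, SE 0.18) and lower with LIF than with NGAL (-0.33, SE 0.10). Sox17, which can bind beta-catenin and also marks endothelium, fell by day 7 with LIF (-2.25), NGAL (-3.64) and ANX (-3.65) to means below the threshold, which makes these -0.99, -1.92 and -2.38 with those means set to it. Of 19 tested modulators at the cell surface, 3 were higher and 5 lower with LIF and 5 and 5 with ANX, with medians of 0.14 and 0.09. The glypicans Gpc3 and Gpc6 fell with LIF (-0.94 and -0.90) and ANX (-1.40 and -0.63), and so did Reck, a partner of Wnt7 ligands (-1.22 and -0.84). Sostdc1, an antagonist that binds Lrp6, rose by day 7 with LIF (2.20, SE 0.32) and ANX (2.70, SE 0.32), or by 1.501 and 1.91 with the day 1 means, below the threshold, set to it. Of 30 tested genes of planar polarity and other branches, 2 were higher and 6 lower with LIF and 1 and 5 with ANX, with medians of -0.05 and -0.01. Fat4, a large cadherin, fell most there (-2.60 with LIF and -2.65 with ANX).

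Of 22 tested genes that are known targets of beta-catenin, 7 were lower and none higher in day 1 controls than in fresh tissue (median -0.53, beside 2.26% of all genes lower), and 8 were lower and none higher on day 2 (median -0.86, beside 12.7%). This list, like the other lists, was chosen with earlier results of these data known. Its counts beside the shares of all genes are therefore descriptive only. Fst, the activin-binding protein follistatin, fell on day 1 (-3.28, SE 0.54), as did Ccnd1, cyclin D1 (-3.05, SE 0.81). With LIF 7 were higher and 1 lower than in control (median 0.22), and with ANX 6 and 1 (median 0.34). Jag1, a Notch ligand, rose by 1.80 with LIF and 1.34 with ANX, Pax8, a kidney transcription factor, by 1.72 and 1.69 and Fst by 2.15 and 3.43, while Twist1, a mesenchymal factor, changed by -1.24 and -0.93. From day 1 to day 7 3 rose and 4 fell with LIF, 5 and 3 with NGAL and 7 and 4 with ANX, beside 4.39% and 6.51%, 6.92% and 8.60%, and 6.40% and 7.43% of all genes. Fst fell with LIF (-2.51) and ANX (-3.91), as did Twist1 (-2.74 and -3.59), while Emx2, a homeobox gene needed for kidney formation, rose by 3.49 and 4.94. The day 7 means of Twist1 and the day 1 means of Emx2 were below the threshold, and set to it they give -1.96 and -2.25 for Twist1 and 1.58 and 2.70 for Emx2. Pax8, Jag1 and Emx2 are also in the list of nephron epithelium markers, and Lef1 is in both lists of beta-catenin genes.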

How the data were processed

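Total RNA was measured on 42 Affymetrix rat genome arrays. The authors deposited RMA values on a linear intensity scale, per the labels' processing notes and the values themselves (7.6 to 17972, array medians 83.3 to 88.4), and the arrays' number limits the precision. RMA's background correction and quantile step had already been applied; no source here gives its version. Values were taken as log2. Probe sets were named from the platform annotation, those of several genes or none were left out, and each gene kept its probe set of highest mean. Group means of 21 groups were fitted with limma 3.58.1 (R 4.3.3) over all 42 arrays, with a mean-variance trend, 21 residual degrees of freedom and Benjamini-Hochberg adjustment over 11388 genes. The script was tested on simulated data. The members and lists were chosen with earlier results of these data known. All members called in a comparison are named, up to 12 with their values in each array or the range, and of members never called the largest change within each role. Promoters are those of RefSeq on GRCr8 (39 of 53 genes matched). Replicates are biological per the labels, with no source of shared origin given. Same-numbered replicates deviated together in some pairs of groups and in opposite ways in others. Their correlations ran from -0.646 to 0.742 over 210 pairs of groups, with a median of 0.0652 and 88 over 0.1. They were not taken as pairs in the main fit, and a shared replicate effect was fitted as the block among the alternatives. Alternatives changed the filter, scaling, probe set choice, offset, weights, arrays fitted and block, and left out each array in turn.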

Additional observations from a re-analysis of the deposited data

Results flagged for a closer look

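For 6 pathway genes both day 7 arrays lay on one side of both day 1 arrays with one inducer and on the other side with another, which is 13.3% of the 45 tested, beside 6.49% of all genes tested. The difference between inducers was not tested gene by gene on these days, and the limma test of inducer by day called none of the 45 genes. The log2 change of Apc, of the destruction complex, was 0.3796 with LIF and 0.3205 with ANX but -0.2782 with NGAL. That of Dkk3 was 0.3137 with LIF and 0.4729 with NGAL but -0.2036 with ANX. Fzd2 changed by -0.4437 with NGAL and 0.344 with ANX. The receptor Lgr6 changed by 0.8496 with LIF and 0.533 with ANX, against -0.05949 with NGAL. Among TCF factors, Tcf7l1 changed by 0.5293 with LIF and -0.1852 with NGAL, and Tcf7l2 by 0.614 with LIF and 0.4271 with ANX against -0.2952 with NGAL. Of these changes the rise of Lgr6 with LIF alone passed the test of day 7 against day 1.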

How the results depend on the processing

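Of the 95 named results 55 were called with every array left out in turn, 40 were lost at least once and none changed sign. With 16 units added before log2, 94 of 95 calls held, with quantile normalization 93, without the filter 90, with array weights 87, with the dap covariate 90, with the replicate block 95, with only the arrays compared 74, with the stricter filter 89 of 89 with the mean of probe sets 86 of 94, with low-ratio arrays 59 of 89, and on day 1 and day 2 alone 9 and 8 of 22. Only Ctnnb1, NGAL against ANX, reversed, at -0.08556 with the mean of probe sets. Counts of pathway genes called moved as follows. Control day 1 against fresh (2) gave 4 with the mean of probe sets, 6 with array weights, 4 with the dap covariate and 0 with low-ratio arrays, a setting chosen after seeing the data. Control day 2 against fresh (6) gave 17 with weights and 20 with only the arrays compared. LIF against control (11) gave 17 with only the arrays compared, 5 and 6 on day 1 and day 2 alone and 2 with low-ratio arrays, and ANX against control (11) gave 17 with weights, 4 and 3 on the single days and 1 with low-ratio arrays. Day 7 against day 1 gave 2 with weights, 1 with only the arrays compared and 8 with the replicate block for LIF (5), 3 with weights and 0 with only the arrays compared for NGAL (6), and 3 with only the arrays compared and 8 with the dap covariate for ANX (5). LIF against ANX (5) gave 8 with the mean of probe sets and 8 with the replicate block, and the block lost none of the 95 calls. Leaving out 1 array gave 0 to 1 and 1 to 2 calls for control days 1 and 2, 9 to 12 for LIF and 6 to 12 for ANX against control, 2 to 6, 2 to 6 and 3 to 4 for day 7 with LIF, NGAL and ANX, 21 to 27 for LIF against NGAL, 3 to 9 for LIF against ANX, 13 to 23 for NGAL against ANX, 0 for NGAL against control and 0 to 1 for inducer by day. Where a count moved without fewer arrays or genes being used, the cause was not tested. Control day 2 against fresh could not be fitted with low-ratio arrays, since both day 2 controls are above the limit. For 23 of the 95 results at least 1 of the groups compared lay below the threshold, where signal over background limits the fold.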
